A study of Mus musculus with 10 samples.

Results

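Thyroid hormone activation and response were followed through 9 genes fixed by name: the transporter Slc16a10, the deiodinases Dio1 and Dio2, the receptors Thra and Thrb, the coregulators Ncor1 and Med1, and the responsive genes Klf9 and Thrsp. They are 9 of the 41249 Ensembl gene identifiers in the count tables, of which 23725 had at least 1 read. RNA sequencing had been carried out on whole interscapular brown adipose tissue (iBAT) of 5 Axl KO and 5 wild-type (WT) male mice, with 1 library per mouse. Per the labels, the mice of both groups had been fed a high-fat diet (HFD) for 24 weeks from an age of 6 to 8 weeks, and they were housed at room temperature. Axl KO mice carry a constitutive disruption of the AXL receptor tyrosine kinase gene in the whole body, a knockout-first cassette with LacZ and a neomycin selection marker placed in an intron of Axl, and the WT mice were littermates. The line came from chimeras that were bred with C57Bl6 mice. The deletion is therefore not restricted to adipocytes. The samples fall into no other groups, and p-values set the difference between genotypes against the spread between these mice.

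Thyroid hormone reaches cells mainly as thyroxine, which binds its receptors weakly. Transporters of the plasma membrane carry it in, the type II deiodinase (Dio2) removes an iodine atom to form the active triiodothyronine, and this binds the nuclear receptors encoded by Thra and Thrb. Without hormone the receptors hold corepressors such as NCOR1 at their target genes, and with hormone they recruit coactivators such as the Mediator subunit MED1. In brown adipose tissue, Dio2 is known as a target of sympathetic cAMP signaling and raises the triiodothyronine available within the tissue.

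Of the 9 genes, Dio2 showed the largest difference between genotypes. Its normalized count was 1.85-fold higher in Axl KO than in WT mice (95% interval 1.36 to 2.53), and the lowest Axl KO mouse exceeded the highest WT mouse. For Thrb, Ncor1 and Med1 the log2 fold change lay within 0.08 of 0, and for Slc16a10, Thra, Klf9 and Thrsp the difference was within the spread between mice. Dio1 had no read in any mouse. Of all 13739 genes with a mean above 1 CPM (the count relative to the library size after TMM scaling), edgeR's quasi-likelihood test gave an adjusted p under 0.05 for 1 gene, Axl itself (0.00728%), so 0 of the 8 tested thyroid hormone genes passed, whereas DESeq2 called 9 of 13737 (0.0655%), with Dio2 among them.

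Total counts per mouse ranged from 5431014 to 8214841 in Axl KO (median 6645186) and from 5952427 to 9580215 in WT mice (median 7748975). Axl was at 1.57 ± 0.646 CPM (SD, n = 5) in the Axl KO group and 43.1 ± 5.86 CPM (SD, n = 5) in the WT group. The 10 brown adipocyte markers checked had reads in the libraries, and their summed level was 16390 to 20760 CPM in Axl KO and 15220 to 17440 CPM in WT mice. Skeletal muscle markers, from a tissue next to the depot, varied most, from 4.36 to 2862 CPM in Axl KO and from 697 to 3442 CPM in WT mice. Sums for macrophage (103 to 187 against 110 to 179 CPM), endothelial (396 to 503 against 383 to 542 CPM) and fibroblast markers (366 to 643 against 543 to 719 CPM) overlapped between Axl KO and WT mice, and lymphocyte markers were at most at 0.809 CPM. In RNA of a whole depot, fewer cells of a type and less RNA per cell cannot be told apart.

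The start region of Dio2 is shown because this gene differed most between genotypes, and that of Klf9 because its correlation with Dio2 over the mice was the highest of the members, although this did not pass the adjustment for the number of correlations. Each is the 250 bases before the start site in RefSeq on GRCm38.p6, read 5′ to 3′ on the strand of the gene. Capitals mark matches to the cAMP response element TGACGTCA, its core TGACG, the nuclear receptor motif AGGTCA or the TATA box TATAAA, searched on both strands, where the core lies within the full element.
Dio2 (chr12:90739039-90739288, reverse strand): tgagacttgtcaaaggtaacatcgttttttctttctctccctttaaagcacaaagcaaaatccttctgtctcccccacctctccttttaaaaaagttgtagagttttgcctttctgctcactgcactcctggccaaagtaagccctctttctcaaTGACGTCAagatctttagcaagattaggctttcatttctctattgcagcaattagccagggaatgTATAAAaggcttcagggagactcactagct
Klf9 (chr19:23140976-23141225, forward strand): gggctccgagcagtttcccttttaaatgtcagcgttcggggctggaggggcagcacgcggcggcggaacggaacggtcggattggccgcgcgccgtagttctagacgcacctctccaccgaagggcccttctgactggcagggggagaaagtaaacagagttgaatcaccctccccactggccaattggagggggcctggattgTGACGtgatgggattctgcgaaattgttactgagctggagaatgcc
In Dio2, the full cAMP response element lay from −95 to −88 and a TATA box from −30 to −25, counted from the start site. In Klf9 the core alone lay from −46 to −42. Of 32851 RefSeq mouse promoters of this length, 1.55% held TGACGTCA, 17.77% TGACG, 14.02% AGGTCA and 12.37% TATAAA. The Dio2 window overlaps no exon and lies in an intron of the noncoding gene Gm26512 on the opposite strand, and its RefSeq start is 600 bases upstream of the start in GENCODE M21. The Klf9 window overlaps no annotated gene. RefSeq promoters were matched for 8 of the 9 genes, with Thra as the exception. Among the other members, 1 of the Thrb promoters held the core at −56 to −52 and AGGTCA at −184 to −179, and the other held a TATA box, while Dio1, Slc16a10, Thrsp, Ncor1 and Med1 held no match to these letters.

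Slc16a10 (ENSMUSG00000019838, reverse strand of chromosome 10 from 40033532 to 40142258 on GRCm38) encodes a transporter of aromatic amino acids that also carries thyroid hormone. Its normalized counts were 36.1, 47.0, 47.5, 40.6 and 36.9 CPM in Axl KO replicates 1 to 5, and 45.6, 51.3, 45.6, 46.8 and 36.7 CPM in WT replicates 1 to 5. The groups overlapped over most of their range, and the lowest mouse of each group lay near 36 CPM. The means were 41.6 ± 5.41 CPM (SD, n = 5) in the Axl KO group and 45.2 ± 5.28 CPM (SD, n = 5) in the WT group. This was a log2 fold change of −0.12 (standard error 0.10, 95% interval −0.34 to 0.11), with an adjusted p of 0.764 in edgeR's test. Slc3a2, the heavy chain that amino acid transporters of the L type need at the membrane, had the highest level per length of the transport list, 8.26 CPM per kb of exon against 5.90 for Slc16a10. Of the 8 genes of this list, 4 were tested, 2 higher and 2 lower in Axl KO mice, and 0 had an unadjusted p under 0.05. The other 4 were almost without reads: over the 5 Axl KO and the 5 WT mice, Slco1c1 had 2 and 2 counts, Slc7a5 13 and 16, Slc17a4 0 and 1, and Slco1a4 7 and 6.

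Dio2 (ENSMUSG00000007682, reverse strand of chromosome 12 from 90724552 to 90738438) encodes the deiodinase that activates thyroid hormone within the cell. Its normalized counts were 84.6, 102, 83.2, 79.3 and 149 CPM in Axl KO replicates 1 to 5. In WT replicates 1 to 5 they were 39.6, 70.3, 41.9, 70.8 and 46.3 CPM. The lowest Axl KO mouse, at 79.3 CPM, lay above the highest WT mouse, at 70.8 CPM, so the groups did not overlap. WT replicates 2 and 4 stood above the other WT mice, and Axl KO replicate 5, the smallest library, stood above all other mice.

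The mean of Dio2 was 99.6 ± 29.0 CPM (SD, n = 5) in the Axl KO group and 53.8 ± 15.5 CPM (SD, n = 5) in the WT group, from 290 to 792 reads per mouse. The log2 fold change was 0.89 (standard error 0.21, 95% interval 0.44 to 1.34). In edgeR's quasi-likelihood test the unadjusted p was 0.000973, the 18th lowest of 13739 genes, and the adjusted p was 0.571. The two-sided exact permutation test over the 252 splits of the mice gave p = 0.00794, the smallest that 5 mice against 5 allow. Groups without overlap were found for 186 genes, or 1.35% of those tested, and for 101 genes with Axl KO mice above WT mice, or 0.735%. An unadjusted p under 0.05 was found for 8.4% of all tested genes, and for 1 of the 8 tested thyroid hormone genes, which was Dio2.

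The call of Dio2 depended on the tool. DESeq2 gave the same log2 fold change, 0.89, with an adjusted p of 0.0302. With each mouse left out in turn, Dio2 was called in 5 of 10 DESeq2 fits, with adjusted p from 0.00610 to 0.205, and in 0 of 10 edgeR fits. The log2 fold change in edgeR was lowest without Axl KO replicate 5, at 0.70, and highest without WT replicate 2, at 1.01.

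**Figure D1:**
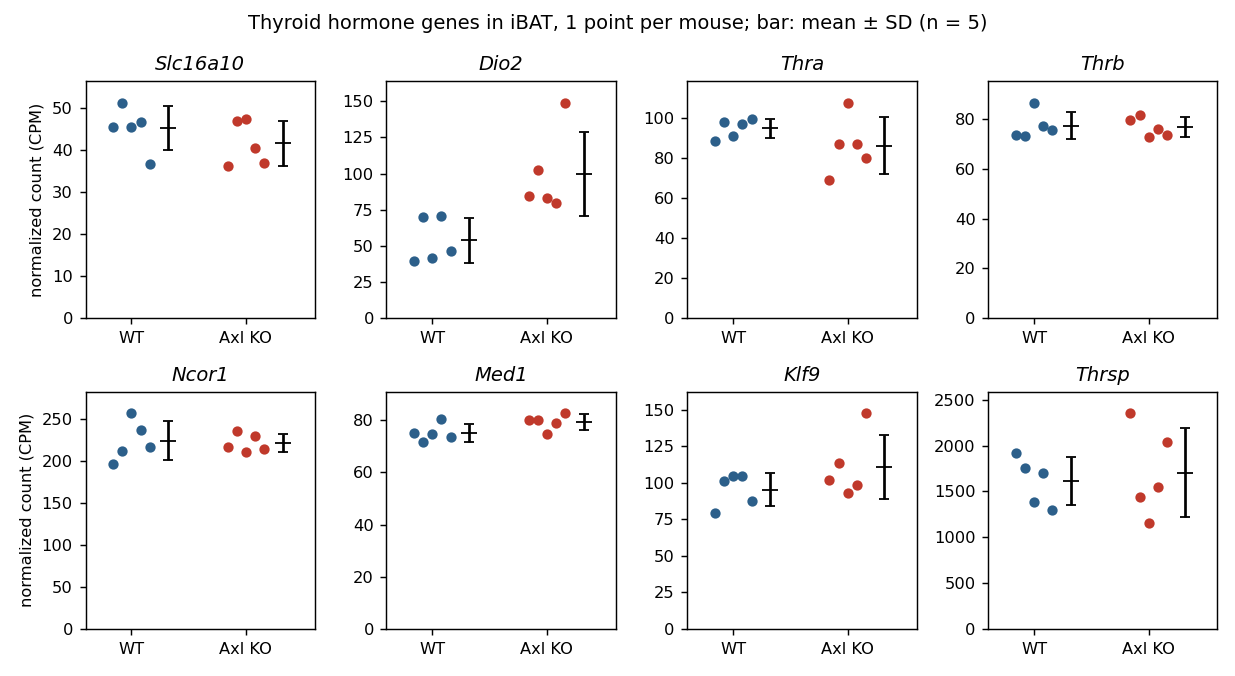
Normalized count (CPM, vertical axes starting at 0) of the 8 detected thyroid hormone genes in WT and Axl KO mice, with 1 point per mouse and the mean ± SD (n = 5) beside each group. For Dio2 the Axl KO mice sit between 79.3 and 149 CPM, all above the WT mice, whereas the groups overlap in the other panels.

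Of the brown adipocyte markers, a list that includes Ucp1, 8 of 10 were higher in Axl KO mice, 3 of them at an unadjusted p under 0.05, with a median log2 fold change of 0.070. Their summed level had a median of 18680 CPM in Axl KO against 15850 CPM in WT mice, with overlapping groups (two-sided exact permutation test, p = 0.0318, adjusted over 10 marker lists 0.318). Without Ucp1 the medians of the sum were 13320 and 12230 CPM (exact permutation test, p = 0.0952). All 5 fibroblast markers were lower in the Axl KO group, with a median of −0.27 on the log2 scale and 1 of 5 at an unadjusted p under 0.05. Their sums overlapped (exact permutation test, p = 0.103, adjusted over the marker lists 0.503). The part of these markers in the difference of Dio2 was not tested. All 8 skeletal muscle markers were lower in Axl KO mice, with 0 of 8 at an unadjusted p under 0.05. Their sums overlapped as well (exact permutation test, p = 0.151, adjusted 0.503). With the muscle markers as a covariate, the log2 fold change of Dio2 was 0.95 (adjusted p = 0.721 in edgeR's test). Exons of Dio2 and of Gm26512, on the opposite strand, share 100 nucleotides, 1.72% of the exons of Dio2, and the strand setting of the counting is not given in the sources used here. Gm26512 was at 2.68 ± 0.210 CPM (SD, n = 5) in the Axl KO group and 2.15 ± 0.331 CPM (SD, n = 5) in the WT group, far below Dio2.

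Dio1 (ENSMUSG00000034785, reverse strand of chromosome 4 from 107291465 to 107307169) encodes the type I deiodinase, known mainly from liver, kidney and thyroid. No read of it was counted in any mouse, among 72927886 counts over the 10 libraries, which allows a level of up to 0.0411 CPM (3 counts over all libraries, counting error only). Dio3, which inactivates thyroid hormone, had 2 counts over the Axl KO and 2 over the WT mice. Dio2 was thus the only deiodinase transcript above the filter on low counts. It encodes a selenoprotein that is removed by ubiquitination, so the 10 genes for its turnover and for selenoprotein synthesis were set beside it. Of these 10, 6 were higher and 4 lower in Axl KO mice, 0 had an unadjusted p under 0.05, and the median log2 fold change was 0.035. The values ran from −0.20 for Wsb1, part of the ubiquitin ligase that targets DIO2, to 0.15 for Sephs2, which makes the selenium donor for selenocysteine and had the highest level of the list per length, 110 CPM per kb. Usp33 and Usp20, which remove ubiquitin from DIO2, had log2 fold changes of 0.057 and 0.14.

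Thra (ENSMUSG00000058756, forward strand of chromosome 11 from 98740638 to 98769006) and Thrb (ENSMUSG00000021779, forward strand of chromosome 14 from 17660261 to 18038090) encode the nuclear receptors. Thra was at 68.8, 87.2, 108, 86.8 and 79.98 CPM in Axl KO replicates 1 to 5, and at 88.6, 97.8, 91.0, 97.0 and 99.3 CPM in WT replicates 1 to 5. Of the Axl KO mice, 4 lay below every WT mouse and replicate 3 lay above every WT mouse. The spread was wider in Axl KO mice, 86.1 ± 14.1 CPM (SD, n = 5), than in WT mice, 94.7 ± 4.65 CPM (SD, n = 5). The log2 fold change of Thra was −0.14 (standard error 0.097, 95% interval −0.35 to 0.075, adjusted p = 0.707 in edgeR's test). Without Axl KO replicate 3 it was −0.23, with an edgeR adjusted p of 0.202, and without Axl KO replicate 1 it was −0.065. Thra shares 263 nucleotides of exon, 5.7% of its own, with Nr1d1 on the opposite strand, which had 490 reads over the 10 mice and was at 6.55 ± 1.72 CPM (SD, n = 5) in the Axl KO group and 6.76 ± 1.26 CPM (SD, n = 5) in the WT group. Since 1 count was deposited per gene, these values do not separate the Thra transcripts that encode a hormone-binding receptor from those that do not.

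Thrb was at 79.8, 81.8, 72.7, 75.8 and 73.6 CPM in Axl KO replicates 1 to 5, and at 73.7, 73.3, 86.6, 77.4 and 75.8 CPM in WT replicates 1 to 5. All 10 mice lay close together, and WT replicate 3 had the highest value. The means were 76.7 ± 3.91 CPM (SD, n = 5) in the Axl KO group and 77.4 ± 5.42 CPM (SD, n = 5) in the WT group. They gave a log2 fold change of −0.012 (standard error 0.062, 95% interval −0.15 to 0.12, edgeR adjusted p = 0.976). Per kb of exon, Thra lay above Thrb in 10 of 10 mice, with a median ratio of 1.74 in Axl KO and 2.01 in WT mice. The retinoid X receptors Rxra, Rxrb and Rxrg, which pair with both, had log2 fold changes of 0.0080, 0.037 and 0.093, with 0 of the 5 receptor genes at an unadjusted p under 0.05.

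Ncor1 (ENSMUSG00000018501, reverse strand of chromosome 11 from 62316426 to 62458541), the corepressor that holds a histone deacetylase complex on receptors without hormone, was at 217, 236, 210.3, 230 and 214 CPM in Axl KO replicates 1 to 5. In WT replicates 1 to 5 it was at 197, 212, 257, 237 and 217 CPM. The Axl KO mice lay within the range of the WT mice, of which replicate 3 was again the highest. Means of 221 ± 10.97 CPM (SD, n = 5) in the Axl KO group and 224 ± 23.3 CPM (SD, n = 5) in the WT group gave a log2 fold change of −0.017 (standard error 0.074, 95% interval −0.18 to 0.14, edgeR adjusted p = 0.968). Its exons share 82 nucleotides with Pigl and 1 nucleotide with Ttc19, both on the opposite strand. Pigl was at 5.23 ± 1.22 CPM (SD, n = 5) in the Axl KO group and 5.49 ± 0.657 CPM (SD, n = 5) in the WT group, and Ttc19 at 50.4 ± 5.37 CPM (SD, n = 5) and 47.3 ± 4.28 CPM (SD, n = 5). Ncor1 was the highest per length of the 6 corepressor genes, at 17.4 CPM per kb. Of these 6, 2 were higher and 4 lower in the Axl KO group, with a median of −0.048 on the log2 scale and values between −0.096 for Hdac3, the deacetylase of the complex, and 0.036 for Gps2, one of its subunits.

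Med1 (ENSMUSG00000018160, reverse strand of chromosome 11 from 98152154 to 98193293), the Mediator subunit that contacts hormone-bound receptors, was at 80.1, 80.1, 74.7, 78.9 and 82.6 CPM in Axl KO replicates 1 to 5, and at 75.2, 71.6, 74.6, 80.5 and 73.4 CPM in WT replicates 1 to 5. Apart from Axl KO replicate 3 and WT replicate 4, the Axl KO mice lay above the WT mice. The spread was the smallest of the 8 detected genes, with 79.3 ± 2.89 CPM (SD, n = 5) in the Axl KO group and 75.1 ± 3.32 CPM (SD, n = 5) in the WT group. Med1 had a log2 fold change of 0.079 (standard error 0.052, 95% interval −0.034 to 0.19, edgeR adjusted p = 0.681), and a two-sided exact permutation test gave p = 0.103. Of the 9 coactivator genes, 3 were higher and 6 lower, with a median log2 fold change of −0.015. They ran from −0.15 for Ncoa3, a steroid receptor coactivator, to 0.079 for Med1, the highest value of the list. The acetyltransferase gene Kat2b had the highest level per length, 22.1 CPM per kb, and Ppargc1a, a coactivator induced in thermogenesis, had a log2 fold change of 0.023.

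**Figure D2:**
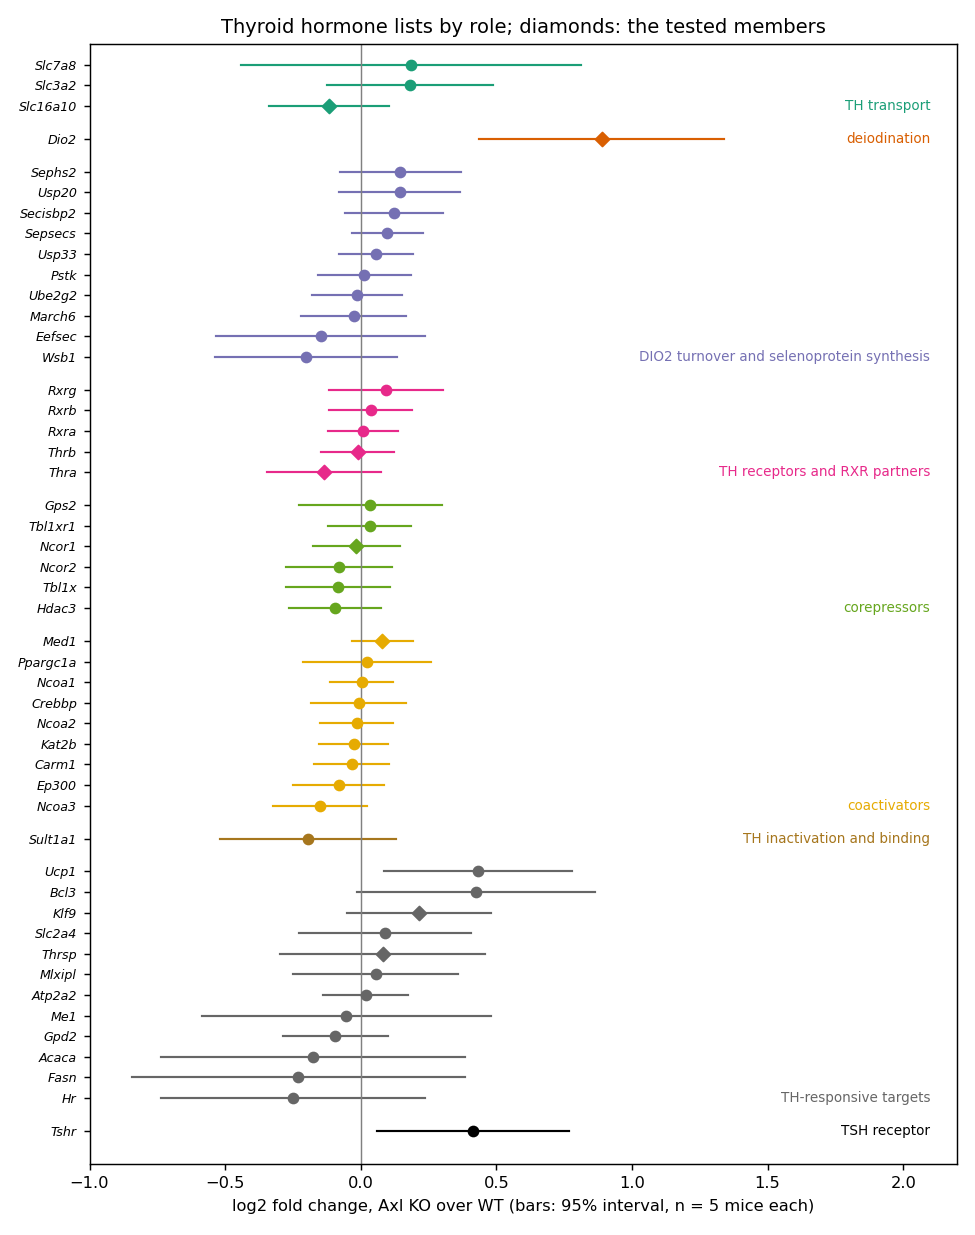
Log2 fold change of Axl KO over WT mice (horizontal axis) with its 95% interval for tested genes of the thyroid hormone lists, grouped by role, with diamonds for the 8 tested genes described above. Dio2 stands at 0.89, and the other points lie between −0.25 and 0.43.

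Klf9 (ENSMUSG00000033863, forward strand of chromosome 19 from 23141226 to 23168134) encodes a zinc finger transcription factor that is induced by thyroid hormone in many tissues and also by glucocorticoids. It was at 102, 114, 93.3, 98.8 and 148 CPM in Axl KO replicates 1 to 5, and at 79.3, 101, 105, 105 and 87.3 CPM in WT replicates 1 to 5. Axl KO replicate 5 stood far above the other mice and WT replicate 1 was the lowest, while the other mice overlapped. Means of 111 ± 21.8 CPM (SD, n = 5) in the Axl KO group and 95.5 ± 11.5 CPM (SD, n = 5) in the WT group gave a log2 fold change of 0.22 (standard error 0.12, 95% interval −0.051 to 0.48, edgeR adjusted p = 0.644). This was within the spread of the groups (p = 0.191 in a two-sided exact permutation test). Without Axl KO replicate 5 the log2 fold change of Klf9 was 0.092.

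Thrsp (ENSMUSG00000035686, reverse strand of chromosome 7 from 97412938 to 97417730) encodes a lipogenic protein known for its response to thyroid hormone and carbohydrate in liver and fat. It was at 2353, 1438, 1156, 1544 and 2037 CPM in Axl KO replicates 1 to 5, and at 1919, 1760, 1384, 1702 and 1302 CPM in WT replicates 1 to 5. The Axl KO group held both the lowest and the highest mouse. Means of 1706 ± 482 CPM (SD, n = 5) and 1613 ± 261 CPM (SD, n = 5) gave a log2 fold change of 0.080 (standard error 0.17, 95% interval −0.30 to 0.46, edgeR adjusted p = 0.918). Without Axl KO replicate 1 its sign turned, to −0.063.

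The 12 genes listed as responsive to thyroid hormone, Klf9 and Thrsp included, did not share a direction, with 7 higher and 5 lower in the Axl KO group and a median of 0.037 on the log2 scale. Hr, a corepressor that thyroid hormone induces, had the lowest value, −0.25 (standard error 0.22). The lipogenic genes Fasn, Acaca and Me1 had log2 fold changes of −0.23, −0.18 and −0.053 (standard errors 0.28, 0.26 and 0.25). Mlxipl, the carbohydrate-responsive factor, had 0.055. Gpd2, the mitochondrial glycerol phosphate dehydrogenase, had −0.094, Atp2a2, a calcium pump, had 0.018, and Slc2a4, the insulin-responsive glucose transporter, had 0.090. Bcl3, a regulator of NF-kappaB, was at 0.43 (standard error 0.20, edgeR adjusted p = 0.599). Ucp1, the uncoupling protein of brown adipocytes and the highest of the list at 2958 CPM per kb, was at 5561 ± 1197 CPM (SD, n = 5) in the Axl KO group and 4119 ± 863 CPM (SD, n = 5) in the WT group, with overlapping groups. This came to 0.43 on the log2 scale (standard error 0.16), with an unadjusted p of 0.0185 and an adjusted p of 0.571 in edgeR's test, and the two-sided exact permutation test gave p = 0.0556. Axl KO replicate 5 stood highest, at 7632 CPM, and leaving it out took the unadjusted p of Ucp1 above 0.05.

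Over all 56 genes of the thyroid hormone lists, 49 were tested, of which 25 were higher and 24 lower in the Axl KO group, with a median of 0.0040 on the log2 scale. Over all tested genes, 6840 were higher and 6899 lower. An unadjusted p under 0.05 was found for 3 of the 49, Dio2, Ucp1 and Tshr, each higher in Axl KO mice, where 4.54% of all tested genes were higher at this p. Without the members, 2 of 41 had such a p, a share close to that background. Tshr, the receptor for thyrotropin, was at 11.4, 6.46, 9.33, 7.13 and 7.15 CPM in Axl KO replicates 1 to 5, and at 5.87, 5.71, 6.13, 6.71 and 6.92 CPM in WT replicates 1 to 5. Axl KO replicate 2 lay within the WT range and the other Axl KO mice above it. The log2 fold change of Tshr was 0.41 (standard error 0.16, unadjusted p = 0.0256 and adjusted p = 0.571 in edgeR's test). Sult1a1, a sulfotransferase that inactivates thyroid hormone, had a log2 fold change of −0.19 at 23.2 CPM per kb, and Crym, which encodes a cytosolic binding protein of triiodothyronine, had 11 counts over the Axl KO and 6 over the WT mice.

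Levels of different genes were compared per kb of exon, from the merged exons of GENCODE M21. The order of genes with close levels depends on these lengths, since the transcripts of a gene were not separated. Over the 10 mice the order was Thrsp (758 CPM per kb), Klf9 (21.4), Thra (19.6), Ncor1 (17.4), Dio2 (13.2), Thrb (10.4), Med1 (8.82) and Slc16a10 (5.90). Thrsp lay above Klf9 in 10 of 10 mice, with a median ratio of 33.6. Klf9 and Thra did not differ beyond their spread, since Klf9 was higher in 6 of 10 mice, and the ranges of Thra and Ncor1, of Ncor1 and Dio2 and of Dio2 and Thrb overlapped as well. Thrb lay above Med1, and Med1 above Slc16a10, in 10 of 10 mice each. The place of Dio2 in this order differed between the genotypes. Dio2 per kb was at 17.1 ± 4.98 (SD, n = 5) in the Axl KO group and 9.25 ± 2.67 (SD, n = 5) in the WT group, above Thrb in 5 of 5 Axl KO mice but in 2 of 5 WT mice, with a median ratio to Thrb of 1.46 and 0.778.

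**Figure D3:**
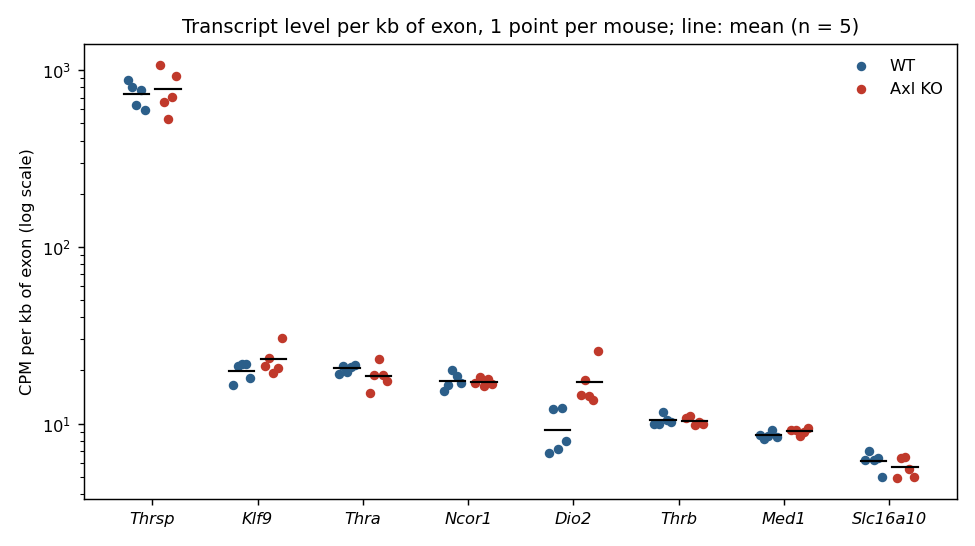
CPM per kb of exon (vertical axis, log scale) of the 8 detected genes in descending order of their mean, with 1 point per mouse in WT and Axl KO groups and a line at each group mean (n = 5). Thrsp lies far above the rest, and Dio2 moves from below to above Thrb between WT and Axl KO mice.

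Mice of one genotype also differed in Dio2, with a coefficient of variation of 28.8% in WT and 29.1% in Axl KO mice. To see which genes varied with it, the log2 CPM of each gene was centred on its genotype mean and correlated over the 10 mice. Klf9 gave a Pearson's r of 0.807 (exact permutation within genotype, p = 0.00958, adjusted over 7 correlations 0.0671). Its Spearman's rho within genotype was 0.8 (exact permutation p = 0.0192, adjusted 0.134). The r was 0.982 in the Axl KO and 0.622 in the WT mice. It was 0.57 without Axl KO replicate 5 and WT replicate 4. These mice lay farthest from the median of Dio2 after its log2 CPM was centred on the genotype means. The relation therefore leans on those mice and failed the adjustment over 7 correlations. For the other 6 members r lay between −0.266 for Thrb and 0.431 for Med1 (exact permutation p at least 0.26).

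**Figure D4:**
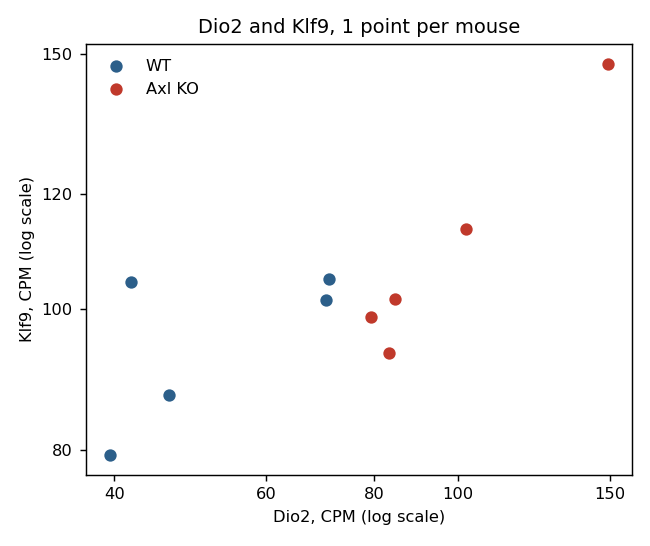
Normalized count of Klf9 (vertical axis, CPM, log scale) against that of Dio2 (horizontal axis, CPM, log scale), with 1 point per mouse. Axl KO replicate 5 lies at the top right with 149 CPM of Dio2 and 148 CPM of Klf9, and WT replicate 1 at the bottom left with 39.6 and 79.3 CPM.

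Among 8649 genes with a mean above 10 CPM, the 5 whose centred log2 CPM was most like that of Dio2 were Ccdc12 (r = 0.924), Mpdu1 (0.916), Metap1 (0.901), Nrp1 (0.896) and Ffar4 (0.883). These are the highest of 8649 values and are given as a description. Nrp1 encodes a coreceptor of semaphorins and VEGF, and Ffar4 a receptor of long-chain fatty acids. Between genotypes, their log2 fold changes were 0.25, 0.19, 0.036, 0.11 and 0.34 in the same order, smaller than that of Dio2.

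**Figure D5:**
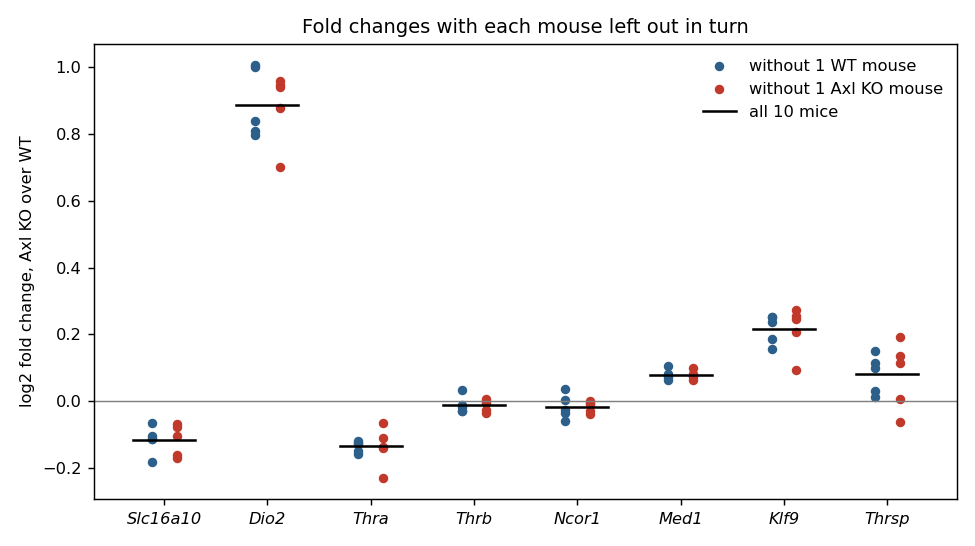
Log2 fold change of Axl KO over WT mice (vertical axis) from edgeR with each mouse left out in turn, for the 8 detected genes, where points stand for fits without 1 WT or 1 Axl KO mouse and the line for all 10 mice. Dio2 stays between 0.70 and 1.01, while the points of Thrb, Ncor1 and Thrsp lie on both sides of 0.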

How the data were processed

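RNA from iBAT of 5 Axl KO and 5 WT mice was sequenced with 1 library per mouse. The authors deposited raw read counts per Ensembl gene, 1 table per mouse, without normalization. The submitters' processing notes list Trimmomatic 0.36, STAR 2.6.1c, DESeq2 and GRCm38.p5, whereas the paper's methods describe Trim Galore, hisat2 and GRCm38. The labels name polyadenylated RNA and the paper's methods rRNA depletion. For the diet the labels' period and starting age are given here, whereas the paper states a slightly longer period and its methods a later start. The counting tool, its strand setting and the annotation release are not given in the sources used here.

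Symbols and exon lengths came from GENCODE M21, which holds 41163 of the 41249 identifiers, 23725 of them with a read. Counts were compared in R 4.3.3 with edgeR 4.0.16 (TMM, quasi-likelihood test, Benjamini-Hochberg adjustment over all 13739 genes with a mean above 1 CPM). DESeq2 1.42.0, other filters and scalings, a muscle covariate, the replicate number as a block and fits without each mouse were alternatives. Single genes were compared by exact permutation of log2 CPM (pseudocount 0.5 CPM). The common coefficient of variation was 14.8%, and total counts of 5431014 to 9580215 set the precision of low genes. The procedure was tested on simulated data. The members and lists were chosen with earlier results of these data known. The genes named are the members, Axl, list genes at an unadjusted p under 0.05, without overlap, under the filter or highest per length, genes that overlap a member and the 5 most like Dio2, while other list genes were named after their values were seen. Of the transport list, 1 gene is counted but not reported here.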

Additional observations from a re-analysis of the deposited data

How the results depend on the processing

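Dio2 kept its direction in 18 alternatives, with log2 fold changes from 0.70 to 1.01, edgeR adjusted p from 0.128 to 0.812 and exact permutation p from 0.00794 to 0.0238 with 1 mouse left out. DESeq2 called 9 genes in place of 1 and 1 member, Dio2 (0.89), in place of 0. DESeq2 without Axl KO replicate 3, chosen after seeing the data, called 234 genes, with 13719 genes above the filter on low counts. These included 1 of the 8 tested members, Dio2 (log2 fold change 0.95, adjusted p = 0.0262). The unadjusted DESeq2 p of Dio2 was higher than with all mice, 0.000581 against 1.28e-05, while 234 genes were called against 9. In the fit without this mouse, whose share of all genes at an unadjusted p under 0.05 is not given here, 6 genes of the lists had such a p. Thrb and Ncor1 were not among them, with log2 fold changes of 0.0082 and 0.0017. Why the tools differ was not tested. Thra, Slc16a10, Klf9 and Med1 kept their direction, with log2 fold changes of −0.23 to −0.065, −0.18 to −0.064, 0.092 to 0.27 and 0.063 to 0.10. With each mouse left out in turn, Thrsp ranged from −0.063 to 0.19, Thrb from −0.035 to 0.032 and Ncor1 from −0.060 to 0.037, and the lists held 2 to 6 genes at an unadjusted p under 0.05 in place of 3. The 6 were found without Axl KO replicate 3, a fit whose share of all genes at this p is not given here. They are not read as a result about the lists, and they included Thra and Klf9 (edgeR adjusted p = 0.202 and 0.337). Tshr was not among them, and it was also absent without Axl KO replicate 1, WT replicate 1 or WT replicate 2 and with the muscle covariate. Ucp1 lost its unadjusted p under 0.05 without Axl KO replicate 5. Same-numbered mice correlated between −0.355 and 0.369 in their deviations, and differently numbered mice between −0.383 and 0.326. Whether the numbers pair the mice was not tested. With the replicate block, the log2 fold change of Dio2 was 0.89 (edgeR adjusted p = 0.635), 0 members were called and 3 genes of the lists had an unadjusted p under 0.05. Depth limits Dio1, Dio3, Crym and 4 transporters, which were not tested.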
